A study of Mus musculus with 9 samples.

Results

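The glial intermediate filaments examined here were 6 genes, Gfap, Vim, Nes, Synm, Lmna and Plec, chosen by symbol and not by a threshold on these values, out of 48587 genes in the count table. Read counts were available for all 6 in each of 9 retinal RNA pools. Retinal vein occlusion (RVO) was induced in C57BL/6J mice at 12 weeks of age by laser treatment of every vein of one eye, after eosin Y had been given i.p. under ketamine and xylazine to sensitize the vessels to light. The fellow eye received the laser between the large vessels and served as control, so that both laser groups carried eosin Y, anesthesia and laser burns, and both were taken at d2. A further group was left untreated, and whether these mice received eosin Y or anesthesia is not given in the sources used here. Each group comprised 3 pools of 6 retinas, so n counts pools and not mice. Whether RVO and control pools of the same number held the 2 eyes of the same mice is not given in the sources used here.

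Intermediate filaments are rope-like polymers of the cytoskeleton. In the healthy retina, Mueller cells, the radial glia that span all layers, build them mainly from vimentin, whereas astrocytes of the nerve fibre layer also contain glial fibrillary acidic protein. After injury Mueller cells assemble additional filaments, a response known as gliosis. Nestin and synemin join such polymers as partners, plectin links them to other structures, and A-type lamins line the nucleus. At least Vim, Lmna and Plec are not restricted to glia, since they are also expressed by vascular cells, fibroblasts and leukocytes, and Vim by the lens. In whole retina, fewer cells of a type and less RNA per cell cannot be told apart.

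The start regions of Gfap and Vim, which encode the main filament proteins of retinal glia, are shown first. The reason is that the Gfap to Vim count ratio was lower in RVO than in control eyes, as described with the ratios. RefSeq start windows (GRCm38.p6, 250 bases before to 50 bases after a start) were matched for 5 of the 6 genes, with 1 window each and a second one for Lmna. Plec had none. Below are the 250 bases before the start of Gfap at chr11:102897201-102897450 (minus strand) and of Vim at chr2:13574061-13574310 (plus strand), 5′ to 3′. Capitals mark letters of a motif searched, and in Gfap only the first letters of that motif lie before the start.
Gfap: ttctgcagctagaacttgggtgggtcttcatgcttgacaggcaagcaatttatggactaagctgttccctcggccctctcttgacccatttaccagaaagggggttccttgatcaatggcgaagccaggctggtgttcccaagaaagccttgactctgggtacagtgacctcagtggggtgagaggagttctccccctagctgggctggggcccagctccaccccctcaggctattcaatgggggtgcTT
Vim: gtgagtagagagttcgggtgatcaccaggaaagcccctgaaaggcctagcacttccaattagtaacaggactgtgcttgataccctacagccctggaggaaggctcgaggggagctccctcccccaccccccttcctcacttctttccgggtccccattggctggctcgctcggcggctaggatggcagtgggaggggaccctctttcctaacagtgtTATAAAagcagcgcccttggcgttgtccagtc

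Each motif was searched on both strands of the windows, and a match describes letters, not a bound site. The stretch across the Gfap start at chr11:102897183-102897212 (minus strand) held TTCCAGGAA from position -2 to 7 relative to the start. These letters match both the general STAT motif TTCNNNGAA, found in 8.30% of 32851 windows, and its narrower form TTCCNGGAA, found in 1.15%. The annotation lists 2 further starts for Gfap, at 102897131 and 102900912, and the counts do not show which was used. Vim held a TATA box, TATAAA, from -32 to -27, at chr2:13574267-13574296 (plus strand), which 13.6% of windows contained. Synm held the core of the hypoxia response motif, ACGTG, from -192 to -188, within an overlapping reverse copy, at chr7:67759917-67759946 (minus strand), which 19.6% contained. The first Lmna window held the AP-1 motif TGANTCA from 40 to 46, downstream of its start, at chr3:88503303-88503332 (minus strand), which 7.81% contained. In the 30-base stretches below capitals mark these letters.
Gfap: atgggggtgcTTCCAGGAAgtcaggggcag
Vim: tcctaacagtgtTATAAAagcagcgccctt
Synm: atccgacaacccACGTGggattaccctggg
Lmna: gcctctgcctggctgtcagTGACTCAgtgt
No match to any of the 7 motifs was found in the windows of Nes or in the second Lmna window. The other motifs searched were TGACGTCA, in 1.79% of windows, and GCGNGGGCG, in 5.55%.

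Untreated pools had total counts of 12377572 to 15245869, control pools of 18897218 to 23419497 and RVO pools of 21022997 to 28993921. Even the gene with the fewest reads, Nes in untreated eyes, had 61, 67 and 85 counts, so no value of the 6 genes rested on a handful of reads. Levels are given as CPM, read counts divided by the library size after scaling with TMM factors, and genes were called at a Benjamini-Hochberg adjusted p under 0.01 in edgeR's quasi-likelihood test. Rod markers summed to 88086 to 90287 CPM in untreated pools, which fits the labelled tissue. RVO replicate 2 stood apart, with 6011 CPM of summed lens genes against 188 and 499.9 CPM in the other RVO pools. Control replicate 1 had 3156 CPM of lens genes against 222 and 373 CPM, and untreated pools had 3.37 to 27.6 CPM. Results are therefore given with and without these pools where they changed.

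Of the 6 filament genes, 5 were higher in control laser-treated than in untreated eyes, and the same number was higher in RVO than in untreated eyes. Synm was the gene not called in either. Broad change was the background here, since of all genes tested 52.4% of 16066 were called in control eyes (27.2% higher, 25.2% lower) and 52.1% of 16380 in RVO eyes (27.4% higher, 24.6% lower). The median log2 fold change of the 6 genes was 1.81 in control and 2.78 in RVO eyes, against 0.01 over all genes tested in both comparisons. When RVO eyes were set against control eyes, 3 of 6 were called higher (Vim, Nes and Lmna) and 0 lower in edgeR. At an unadjusted p under 0.05, 4 were higher (Plec in addition) and 1 lower (Synm), where 24.1% of all genes tested were higher and 22.9% lower, 47.1% in all. DESeq2 called 3 of the 6, all higher, and 23.9% of all genes. At the edgeR threshold only 3.34% of 16874 genes were called, 2.70% higher and 0.634% lower. The median log2 fold change of the 6 was 0.55, against 0.02 over all genes. Both laser groups were compared with the same untreated pools, so these comparisons share samples.

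Without overlap of the pools, 5 genes were higher in RVO than in untreated eyes (37.8% of all genes tested) and 5 in control than in untreated eyes (36.8%). For RVO against control eyes this held for 4 genes (27.3%), namely Vim, Nes, Lmna and Plec. The 3 calls between RVO and control eyes depended on the pools included, as did calls over the whole table. Without RVO replicate 2, 4 of the 6 genes were called, the additional one being Synm, which was lower, and so were 36.4% of all genes tested. Without RVO replicate 1, only Nes was called, and 29 genes (0.169%) over the whole table. Without RVO replicate 3, control replicate 2 or control replicate 3, 0 of the 6 and 0 of all genes were called in edgeR, and without control replicate 1, 0 of the 6 and 1 of all genes, while 35.4% to 40.0% of all genes had an unadjusted p under 0.05. The loss was thus general and not particular to the filament genes, and the adjusted p of Vim, Nes and Lmna did not exceed 0.0566, 0.0505 and 0.0562 in these fits. With the replicate number as a block, 0 of the 6 and 0 of all genes were called between RVO and control eyes, where 42.8% of all genes had an unadjusted p under 0.05, and the adjusted p of Vim, Nes and Lmna was 0.0314 each.

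**Figure D1:**
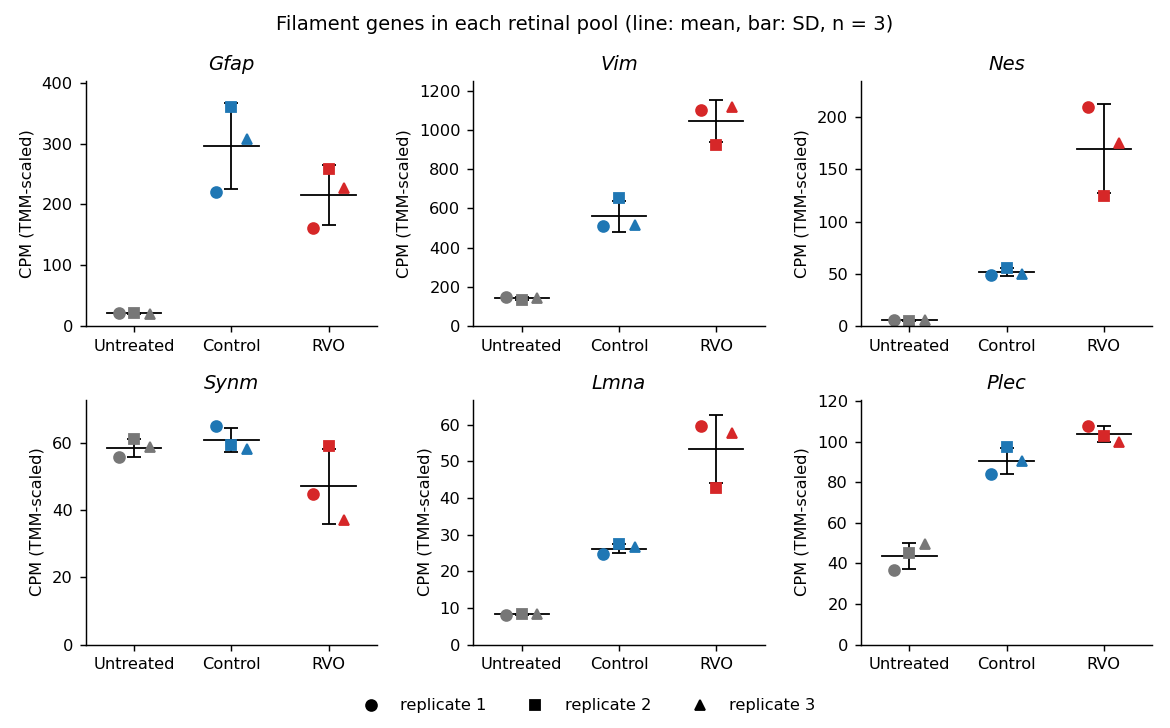
Level of each filament gene in CPM (vertical axes, from 0) in the 3 untreated, 3 control and 3 RVO pools; points are pools, lines are means and bars SD. Vim, Nes and Lmna step up from untreated to control to RVO without overlap, Gfap is high in both laser groups with overlapping pools, Plec rises mainly with laser and Synm stays between 37.2 and 65.1 CPM.

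Gfap (ENSMUSG00000020932.14, chr11:102887336-102900912, minus strand) encodes glial fibrillary acidic protein, a type III filament protein of astrocytes and injured Mueller cells. Untreated pools had 20.8, 20.7 and 20.3 CPM, control pools 220.4, 359.9 and 308 CPM, and RVO pools 161, 259 and 227 CPM. All laser pools lay far above all untreated pools, the untreated pools were nearly alike, and the RVO and control pools overlapped. The mean was 20.6 ± 0.235 CPM in untreated, 296 ± 70.6 CPM in control and 216 ± 50.1 CPM in RVO eyes (SD, n = 3). Gfap rose by a log2 fold change of 3.83 (SE 0.16, 14.2-fold, edgeR adjusted p 8.07e-09) in control eyes, the largest rise among the 6 genes in that comparison. In RVO eyes the rise was 3.38 (SE 0.17, 10.4-fold, adjusted p 4.85e-06).

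Gfap was not called higher with vein occlusion than with laser alone. Its log2 fold change in RVO against control eyes was -0.46 (95% interval -0.97 to 0.04, adjusted p 0.134 in edgeR), so the upper end of the interval was a rise of 0.04. Without RVO replicate 2 it was -0.63 (adjusted p 0.0265), and without control replicate 1, which had the lowest Gfap among the control pools, it was -0.64 (adjusted p 0.0737). In every comparison that left out 1 pool the value stayed negative, between -0.64 and -0.29.

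Vim (ENSMUSG00000026728.9, chr2:13573927-13582826, plus strand) encodes vimentin, the type III protein that Mueller cells contain without injury and that many mesenchymal cells share. Untreated pools had 147, 134 and 140.4 CPM, control pools 509, 652 and 516 CPM, and RVO pools 1102, 925 and 1116 CPM. The 3 groups formed separate steps, with the lowest RVO pool well above the highest control pool. The lens expresses Vim, and the part of lens RNA in these levels was not tested. The log2 fold change was 0.90 between RVO and control eyes (95% interval 0.61 to 1.20, 1.87-fold, edgeR adjusted p 0.0087). Without RVO replicate 2 it was 0.97 (adjusted p 0.000107), and without control replicate 1 it was 0.84 (adjusted p 0.0486). Against untreated eyes, Vim was higher by 1.98 (SE 0.09) in control and by 2.89 (SE 0.10) in RVO eyes on the log2 scale.

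Nes (ENSMUSG00000004891.16, chr3:87971078-87980451, plus strand) encodes nestin, a large filament protein of neural progenitor cells that polymerizes together with vimentin and reappears in injured glia. Untreated pools had 5.46, 5.12 and 5.96 CPM, control pools 49.2, 55.8 and 50.0 CPM, and RVO pools 209.6, 125 and 175 CPM. Again the groups did not overlap, and the RVO pools were spread more widely than the others, with replicate 2 lowest. The rise in RVO over untreated eyes was the largest of the 6 genes, with a log2 fold change of 4.93 (95% interval 4.44 to 5.43, 30.5-fold, edgeR adjusted p 2.89e-06). In control eyes it was 3.20 (SE 0.10, 9.22-fold, adjusted p 1.89e-09). Nes was higher in RVO than in control eyes by 1.71 (95% interval 1.29 to 2.14, 3.28-fold, adjusted p 0.0063). This difference was 1.88 without RVO replicate 2 (adjusted p 3.05e-06) and 1.68 without control replicate 1 (adjusted p 0.0444).

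Synm (ENSMUSG00000030554.16, chr7:67730160-67759742, minus strand) encodes synemin, which joins vimentin filaments and ties them to attachment sites. Untreated pools had 55.8, 61.1 and 58.9 CPM, control pools 65.1, 59.4 and 58.2 CPM, and RVO pools 44.9, 59.1 and 37.2 CPM. Control and untreated pools overlapped, and RVO replicates 1 and 3 lay below all of them, whereas RVO replicate 2 lay among them. None of the 3 comparisons passed the test in edgeR, with log2 fold changes of 0.03 in control (95% interval -0.10 to 0.17, adjusted p 0.651), -0.33 in RVO against untreated (adjusted p 0.0874) and -0.37 in RVO against control eyes (adjusted p 0.0952). At an unadjusted p under 0.05 the last of these passed, since its 95% interval was -0.73 to -0.02. Without RVO replicate 2, Synm fell by 0.50 against untreated eyes (adjusted p 0.000193) and by 0.59 against control eyes (adjusted p 0.00071), both on the log2 scale. Exons of Synm share 84 bases with Ttc23 and 426 bases with Gm45102 on the opposite strand, and whether strand was used in counting is not given in the sources used here, so its level is uncertain to that extent.

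Lmna (ENSMUSG00000028063.15, chr3:88480147-88509956, minus strand) encodes lamins A and C, the nuclear filament proteins whose amount is known to be greater in stiff than in soft tissues. Untreated pools had 8.14, 8.34 and 8.41 CPM, control pools 24.7, 27.3 and 26.6 CPM, and RVO pools 59.7, 42.7 and 57.8 CPM. The groups formed separate steps as for Vim, and RVO replicate 2 was again the lowest of its group. Lmna rose by a log2 fold change of 1.64 (SE 0.09, 3.11-fold, edgeR adjusted p 6.2e-08) in control and of 2.68 (SE 0.15, 6.39-fold, adjusted p 7.11e-06) in RVO eyes. Its difference in RVO against control eyes was 1.03 (95% interval 0.71 to 1.34, 2.04-fold, adjusted p 0.00817). Without RVO replicate 2 it was 1.15 (adjusted p 5.6e-06), and without control replicate 1 it was 0.98 (adjusted p 0.048).

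Plec (ENSMUSG00000022565.15, chr15:76170974-76232574, minus strand) encodes plectin, the linker that holds intermediate filaments to adhesion sites, mitochondria and the nucleus. Untreated pools had 36.9, 45.3 and 49.5 CPM, control pools 84.4, 97.4 and 90.4 CPM, and RVO pools 108, 103 and 100.2 CPM. Laser pools were all above untreated pools, and the lowest RVO pool was just above the highest control pool. Plec rose by 1.02 (SE 0.09, 2.03-fold, edgeR adjusted p 1.51e-06) in control and by 1.23 (SE 0.11, 2.35-fold, adjusted p 5.15e-05) in RVO eyes on the log2 scale. The difference between RVO and control eyes, 0.19 (95% interval 0.02 to 0.37), was not called (adjusted p 0.0815). Plec had the highest GC content of the 6 genes (61.27% in its longest transcript, against 46.48% in Vim). When trends with GC content and length were removed from the fold changes, its rise in control eyes was 0.53 (adjusted p 6.75e-05) and its difference between RVO and control eyes 0.54 (adjusted p 0.013). Exons of Plec share 205 bases with Parp10 on the same strand, and how reads there were assigned is not given in the sources used here.

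**Figure D2:**
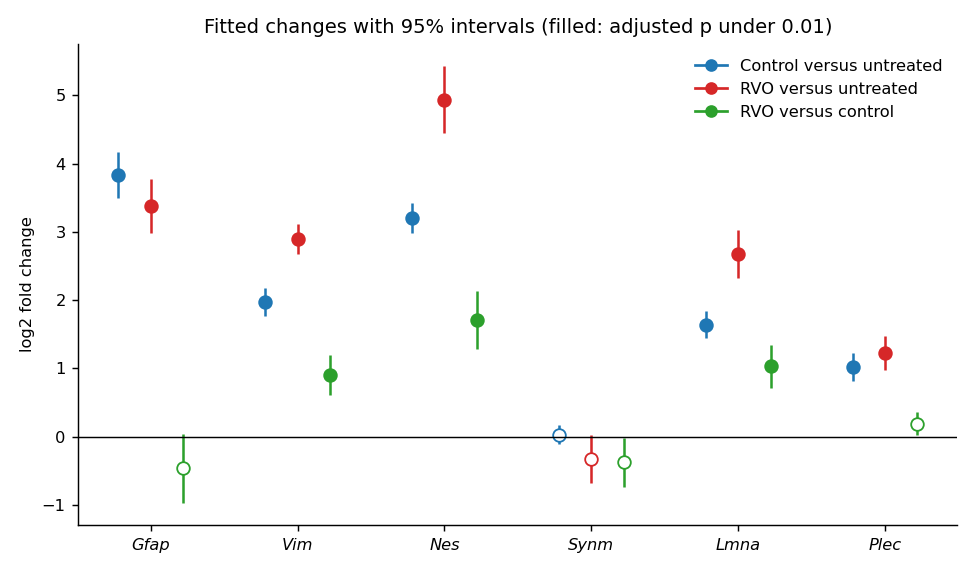
Log2 fold change of each filament gene (vertical axis) in the 3 comparisons, with points for the fitted value, vertical lines for the 95% interval and filled points where the adjusted p was under 0.01. For Vim, Nes, Lmna and Plec the value against untreated eyes is larger in RVO than in control eyes, for Gfap it is 3.38 against 3.83, and all 3 points of Synm are open.

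Levels of different genes were compared as CPM per kilobase of the exons of all annotated transcripts. In untreated eyes the order was Vim (29.6 ± 1.39), Synm (7.39 ± 0.334), Gfap (4.88 ± 0.0556), Plec (2.42 ± 0.355), Lmna (1.42 ± 0.0241) and Nes (0.859 ± 0.0656, SD, n = 3), and no neighbours overlapped. Thus Nes was the least abundant of the 6 transcripts before laser treatment and Synm exceeded Gfap. In control eyes Vim (118 ± 17.0) and Gfap (70.2 ± 16.7) led, followed by Nes (8.05) and Synm (7.68), which overlapped, and by Plec (5.01) and Lmna (4.49), which overlapped too. In RVO eyes Vim (221 ± 22.4), Gfap (51.1 ± 11.9) and Nes (26.4 ± 6.66) were separate, whereas Lmna (9.15) overlapped with Synm (5.93) and Synm with Plec (5.73). With the longest transcript as the length, an alternative chosen after seeing the data, Gfap moved ahead of Synm in untreated eyes, Lmna ahead of Plec in control eyes and Plec ahead of Synm in RVO eyes.

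The make-up of the filament transcripts differed between the groups. Of the summed CPM per kilobase of the 6 genes, Gfap made up 10.5% ± 0.265 in untreated, 32.7% ± 3.76 in control and 16.1% ± 4.5 in RVO eyes (SD, n = 3). The Gfap shares of the control pools, 28.4% to 35.4%, lay above those of all RVO pools, 11.7% to 20.7%. Vim was the largest share throughout, with 63.5% ± 1.89, 55.4% ± 2.75 and 69.1% ± 2.95 in the same order. Synm took 15.9% ± 1.0 in untreated eyes and 3.67% and 1.88% in control and RVO eyes, while its CPM was not called changed. Nes went from 1.84% to 3.81% and 8.25%.

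**Figure D3:**
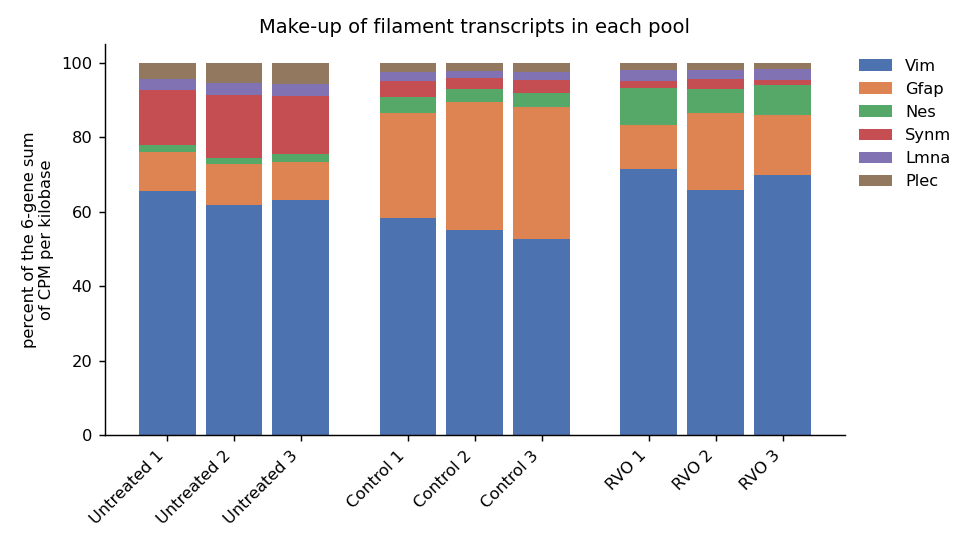
Share of each filament gene in the 6-gene sum of CPM per kilobase (vertical axis, percent) in each pool, as stacked bars. Gfap takes 28.4% to 35.4% in the control pools and 11.7% to 20.7% in the RVO pools, and Synm shrinks from 15.9% in untreated eyes to under 5% in both laser groups.

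Ratios of raw counts within a pool, which need no scaling between libraries, showed the same differences in proportion. The Gfap to Vim count ratio was 0.142, 0.155 and 0.145 in untreated, 0.433, 0.552 and 0.597 in control, and 0.146, 0.280 and 0.203 in RVO pools. Control pools stood above all others, and RVO replicate 1 lay among the untreated pools. The ratio in control eyes was 3.55 times that of untreated eyes, and it was 0.387 times as high in RVO as in control eyes (difference of -1.37 on the log2 scale, exact permutation p 0.1, two-sided). With 3 against 3 pools 0.1 is the smallest p that can be reached, and after adjustment over 12 ratio tests it was 0.109. RVO and untreated eyes overlapped (1.38-fold, exact permutation p 0.2). Without RVO replicate 2 the difference between RVO and control eyes was -1.60, and without control replicate 1 it was -1.50.

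The Nes to Vim count ratio was 0.0375 to 0.0427 in untreated, 0.0856 to 0.0969 in control and 0.135 to 0.190 in RVO pools. Nes thus gained on Vim by 2.35-fold in control and 4.02-fold in RVO against untreated eyes, and by 1.71-fold in RVO against control eyes (exact permutation p 0.1 each). The Synm to Vim count ratio went the other way, with 0.380 to 0.458 in untreated, 0.0911 to 0.128 in control and 0.0334 to 0.0639 in RVO pools. For both ratios the 3 groups were fully separated.

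Lmna was also set against the B-type lamin genes Lmnb1 and Lmnb2, whose products line the nucleus of nearly every cell. The count ratio of Lmna to their sum was 0.0945, 0.103 and 0.102 in untreated, 0.272, 0.318 and 0.278 in control, and 0.528, 0.443 and 0.537 in RVO pools. The groups did not overlap, with a 2.90-fold higher ratio in control and a 5.04-fold higher ratio in RVO than in untreated eyes, and a 1.74-fold higher ratio in RVO than in control eyes (exact permutation p 0.1 each). The B-type genes themselves moved less. Lmnb1 had 57.2 ± 2.21, 49.1 ± 2.61 and 52.7 ± 3.84 CPM in untreated, control and RVO eyes, and Lmnb2 had 26.6 ± 1.30, 41.7 ± 2.55 and 52.9 ± 4.63 CPM (SD, n = 3).

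**Figure D4:**
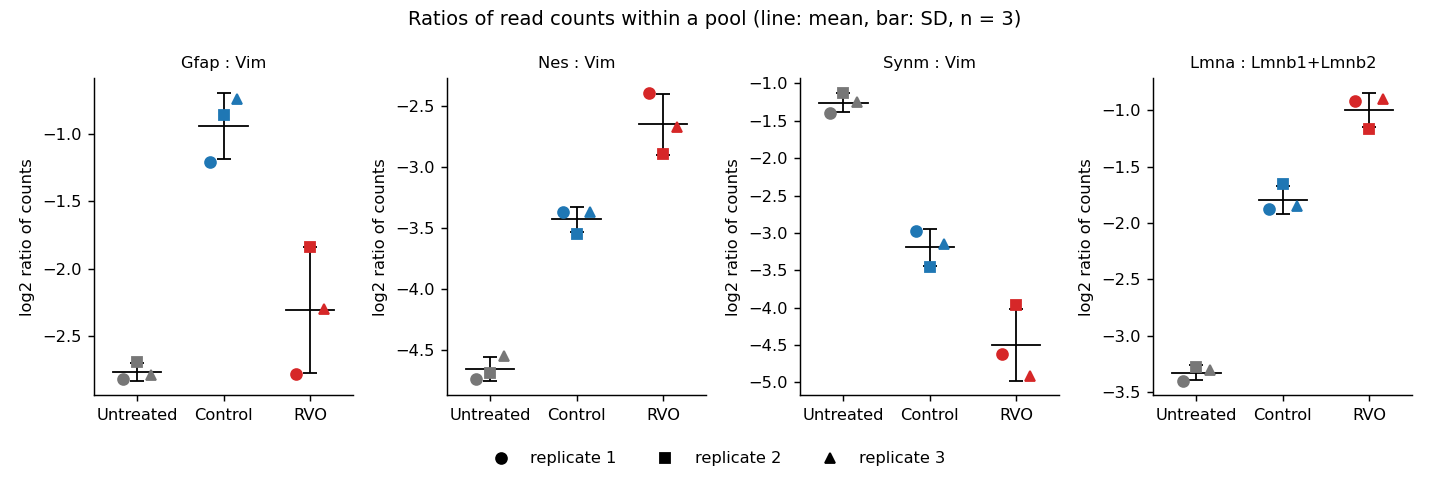
Log2 ratios of read counts within each pool (vertical axes) for Gfap to Vim, Nes to Vim, Synm to Vim and Lmna to the sum of Lmnb1 and Lmnb2; points are pools, lines means and bars SD. The Gfap to Vim ratio peaks in control eyes, and the other ratios step in 1 direction from untreated to control to RVO eyes.

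Across the 9 pools the centred log2 profiles of Vim and Lmna were closest among the members, with a root-mean-square difference of 0.19 (Pearson r 0.99), followed by Lmna and Plec (0.58, r 0.95). Gfap and Vim were 0.81 apart (r 0.90). Synm ran against the others (r -0.19 to -0.58). These correlations describe pools that share group means and carry no test.

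Among 14968 other genes with a mean of at least 1 CPM, the profile nearest to Gfap was that of Crym, a thyroid hormone-binding protein, at 0.181 (r 0.995). Crym had 30.7 CPM in untreated, 344 CPM in control and 323 CPM in RVO eyes, so it too was not higher in RVO than in control eyes. Next to Gfap came Gpd1 (0.298) and Psmb9 (0.352). Nearest to Vim was Stat3, the transcription factor activated by interleukin-6 type cytokines, at 0.081 (r 0.998), with 59.8, 262 and 437 CPM in the same order, followed by Kremen1 (0.110) and Sec22c (0.114).

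Nearest to Nes were Clcf1, a cytokine of the interleukin-6 family (0.147, with 1.97, 21.4 and 62.6 CPM), Gadd45b (0.173) and Junb (0.178), a stress response gene and an AP-1 subunit gene. Lmna was nearest to Vasp, a regulator of actin filaments (0.070, with 8.22, 28.5 and 56.9 CPM), to Itga5, a fibronectin receptor subunit (0.102), and to Gm15513 (0.107). Plec was nearest to Pkd1 (0.038), Src (0.044) and Snapc2 (0.063), and Synm to Chdh (0.061), Rnf165 (0.079) and Cachd1 (0.079). Near profiles were found for each gene, and the differences of Gfap were the widest.

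The other cytoplasmic intermediate filament genes, a list of 15 including neurofilaments and keratins, went in both directions. In RVO eyes 5 of 15 tested rose and 4 fell relative to untreated eyes (median 1.35 on the log2 scale). Control eyes had 5 of 13 higher and 3 lower (median 0.54). For this list and those below, calls against untreated eyes stand beside 52.1% of all genes in RVO and 52.4% in control eyes. EdgeR calls between RVO and control eyes stand beside 3.34% of all genes. Set against control eyes, RVO eyes had 2 higher and 1 lower (median 1.05), against 2.70% and 0.634% of all genes. At an unadjusted p under 0.05 in edgeR there were 11 of 15, 6 higher and 5 lower, against 47.1% of all genes. DESeq2 called 6, against 23.9% of all genes. Nefl, the light neurofilament gene of neurons, had 443, 440.3 and 442 CPM in untreated, 388, 376 and 379 CPM in control and 94.9, 241 and 127 CPM in RVO pools. RVO pools were lowest, and replicate 2 was the highest of them. Nefl fell by 1.53 on the log2 scale in RVO against untreated eyes (edgeR adjusted p 0.00196), and the difference from control eyes was -1.31 (adjusted p 0.0176). Nefm, the medium neurofilament gene, had 171, 169.7 and 62.1 CPM in untreated, control and RVO eyes. Krt18, a keratin gene of simple epithelia, had 56.2 ± 2.09, 82.6 ± 0.952 and 173 ± 17.3 CPM (SD, n = 3) and was higher in RVO than in control eyes by 1.06 on the log2 scale (adjusted p 0.00455). The list also contains Bfsp1 and Bfsp2 of the lens, which count among the lens genes as well.

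Of 13 genes for B-type lamins and nuclear envelope partners, relative to untreated eyes, 6 rose and 3 fell in RVO (median 0.29 on the log2 scale), while 4 rose and 4 fell in control eyes (median -0.10). In RVO against control eyes 0 were called by edgeR, 10 of 13 had an unadjusted p under 0.05 (9 of them higher), against 47.1% of all genes, and DESeq2 called 7, against 23.9%. Icmt, which encodes an enzyme that methylates lamin precursors, rose from 626 to 872 CPM in control and 1189 CPM in RVO eyes (log2 fold changes of 0.46 and 0.91, adjusted p 3.06e-05 and 6.41e-05). Syne1 and Syne2, for nesprins that connect the nucleus with the cytoskeleton, fell by 0.96 and 0.40 on the log2 scale in RVO against untreated eyes (adjusted p 2.17e-05 and 0.00336). They were lower in control eyes too, with log2 fold changes of -0.67 and -0.36 (edgeR adjusted p 1.12e-06 and 0.000942). Neither was called between RVO and control eyes (edgeR adjusted p 0.0205 and 0.55).

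Plakins and plectin-binding adhesion genes included 9 that were tested. Relative to untreated eyes, 4 rose and 2 fell in RVO and 4 rose and 3 fell in control eyes (median log2 fold changes 0.61 and 0.39). In RVO against control eyes 1 was higher and 0 lower at the threshold (median 0.26), against 2.70% and 0.634% of all genes. At an unadjusted p under 0.05 in edgeR there were 6 of 9, 4 higher and 2 lower, against 47.1% of all genes. DESeq2 called 3, against 23.9%. The called gene was Cd151, for a tetraspanin that associates with laminin-binding integrins, with 26.6, 59.4 and 106 CPM in untreated, control and RVO eyes (log2 fold change between RVO and control eyes 0.84, adjusted p 0.00905). The plakin genes Macf1 and Dst, relatives of Plec, moved opposite to it. Macf1 had 581, 411 and 289.9 CPM and Dst 261, 212 and 176 CPM, and both were lower in either laser group than in untreated eyes (adjusted p 0.000278 or less).

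Of 11 genes for enzymes that modify or cleave intermediate filaments, relative to untreated eyes, 4 rose and 2 fell in RVO (median 0.43 on the log2 scale), while 5 rose and 2 fell in control eyes (median 0.56). Against untreated eyes 52.1% of all genes were called in RVO and 52.4% in control eyes. In RVO against control eyes edgeR called only 1, higher (median 0.14), against 3.34% of all genes. At an unadjusted p under 0.05 in edgeR there were 7 of 11, 4 higher and 3 lower, against 47.1% of all genes. DESeq2 called 4, against 23.9% of all genes. Padi2, for an enzyme that converts arginine residues of GFAP and vimentin to citrulline, had 49.1 ± 4.66, 104 ± 7.08 and 137 ± 13.3 CPM in untreated, control and RVO eyes (SD, n = 3). It rose in both laser groups (adjusted p 3.12e-07 in control and 1.95e-05 in RVO eyes, edgeR). Of the kinase genes in the list, Rock2 had 158, 151 and 214 CPM, called only between RVO and untreated eyes (adjusted p 0.00224). Cdk5 had 64.1, 68.6 and 57.8 CPM and was not called in any comparison. The cell division kinase genes were low. Cdk1 had 0.432, 1.65 and 2.02 CPM and rose 4.49-fold in RVO and 3.65-fold in control eyes (edgeR adjusted p 0.00528 and 0.000403). Plk1 had 1.51, 2.55 and 2.68 CPM and was not called in either laser group. Aurkb had 0.123, 0.761 and 0.833 CPM and was called only in control eyes (edgeR adjusted p 0.00248, against 0.0174 in RVO eyes). Pak1 and Rock1 fell in both laser groups, to 0.505 and 0.699 times the untreated level in RVO eyes (adjusted p 0.000514 and 0.000317).

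A list of 11 astrocyte genes that rise in many injuries was higher in full in both laser groups against untreated eyes, with median log2 fold changes of 3.17 in control and 3.95 in RVO eyes. RVO eyes against control eyes had 2 called higher and 0 lower in edgeR (median 0.87), against 2.70% and 0.634% of all genes. At an unadjusted p under 0.05 in edgeR there were 8 of 11, all higher, against 24.1% of all genes. DESeq2 called 7, against 23.9% of all genes. Lcn2 had 4.08 ± 0.698, 115 ± 39.6 and 471 ± 168 CPM, and Serpina3n 13.6 ± 2.52, 290.1 ± 55.7 and 748 ± 234 CPM in untreated, control and RVO eyes (SD, n = 3). Their means stepped up in the order of Vim and Nes. Cp, for the copper carrier ceruloplasmin, had 229.8 ± 17.9, 594 ± 54.9 and 637 ± 54.0 CPM, and the RVO and control pools overlapped as they did for Gfap.

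Markers of the cells that could carry these transcripts moved between the groups as well. The 10 Mueller cell markers summed to 5270.1 to 5615 CPM in untreated, 4321 to 4981 CPM in control and 2534 to 3810.3 CPM in RVO pools, and the highest RVO pool was replicate 2. Relative to untreated eyes, 5 of these markers fell and 3 rose in control eyes, and 5 fell and 2 rose in RVO eyes. In RVO against control eyes edgeR called 0 of the 10. At an unadjusted p under 0.05 in edgeR 1 was higher and 8 lower, against 47.1% of all genes. DESeq2 called 7, against 23.9% of all genes. Glul, for the glutamine synthetase of Mueller cells, had 2552, 1264 and 659 CPM in untreated, control and RVO eyes, whereas Clu had 703, 1342 and 1049 CPM. The place of untreated pools above both laser groups rested on Glul, whereas RVO pools lay below control pools with and without it. Without it, a choice made after seeing the data, the other 9 markers summed to 2811 to 2977 CPM in untreated, 3392 to 3448 CPM in control and 1947 to 3054 CPM in RVO pools, so that control pools were highest and RVO and untreated pools overlapped. Kcnj10 and Sox9 rose in control eyes along with Clu (adjusted p 0.00109 and 4.17e-06, edgeR). Rlbp1, Aqp4, Car14 and Abca8a fell there along with Glul (adjusted p 0.00263 or less, edgeR). Kcnj10 had 112, 159 and 88.4 CPM in untreated, control and RVO eyes, and was not called between RVO and untreated eyes (adjusted p 0.241, edgeR). The 6 retinal astrocyte markers summed to 523 to 526, 617 to 662 and 381 to 571 CPM, mostly from Aldoc. Without Aldoc the sums were 75.2 to 85.3, 100.1 to 136 and 113 to 147 CPM, and of the remaining markers only Aldh1l1 was called higher against untreated eyes. Aldh1l1, an astrocyte enzyme gene, had 13.3, 70.4 and 105 CPM and rose 5.23-fold in control and 7.87-fold in RVO eyes against untreated eyes (adjusted p 3.68e-07 and 2.68e-06). Igf1, of the same list, had 40.9, 19.3 and 9.3 CPM. S100b had 9.3, 8.48 and 4.9 CPM, Pdgfra 16.7, 12.8 and 14 CPM, and Pax2 0.702, 1.04 and 1.19 CPM. None of these last genes was called against untreated eyes in edgeR.

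Endothelial markers summed to 182 to 189 CPM in untreated, 339 to 379.8 CPM in control and 148 to 279 CPM in RVO pools. These sums came mostly from Kdr, with 126, 256 and 149.9 CPM in the same order. Esam had 9.94, 19.6 and 8.68 CPM, whereas Pecam1 had 10.6, 15.6 and 16.4 CPM. Of the 10, 0 were called by edgeR in RVO against control eyes, 7 had an unadjusted p under 0.05, all lower (22.9% of all genes), and DESeq2 called 6 (23.9% of all genes). Pericyte and smooth muscle markers summed to 101 to 116 CPM in untreated, 118 to 143 CPM in control and 87.1 to 169.6 CPM in RVO pools. Control pools lay above untreated pools, and RVO pools overlapped with both. In RVO against control eyes edgeR called 0 of the 9. At an unadjusted p under 0.05 in edgeR 2 were higher and 4 lower, against 47.1% of all genes. DESeq2 called 6, against 23.9% of all genes. By contrast, 8 fibroblast markers summed to 32.6 to 50.1, 44.4 to 70.2 and 117 to 152 CPM in untreated, control and RVO pools. Monocyte and macrophage markers summed to 17.2 to 21.7, 56.0 to 76.0 and 126 to 152 CPM, with Ly6c2 at 0 in untreated eyes. Neutrophil markers summed to 0.535 to 1.16, 8.45 to 24.9 and 47.3 to 105 CPM, with Cxcr2, Mmp8, Retnlg and Elane at 0 in untreated and Elane at 0 in RVO eyes.

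The means of these fibroblast and infiltrating leukocyte sums stepped up in the same order as Vim, Nes and Lmna. The fibroblast sums of untreated and control pools overlapped, however (32.6 to 50.1 and 44.4 to 70.2 CPM). The part of these cells in the rises of Vim, Nes and Lmna was not tested. The part of Mueller cell and astrocyte numbers was not tested either. Microglia markers ran the other way, with 131 to 202, 77.7 to 87.1 and 47.9 to 77 CPM, as did rod markers with 88086 to 90287, 58567 to 71865 and 48200.5 to 52375 CPM. Pigment epithelium markers summed to 509 to 564, 452 to 525 and 361 to 699 CPM and overlapped.

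**Figure D5:**
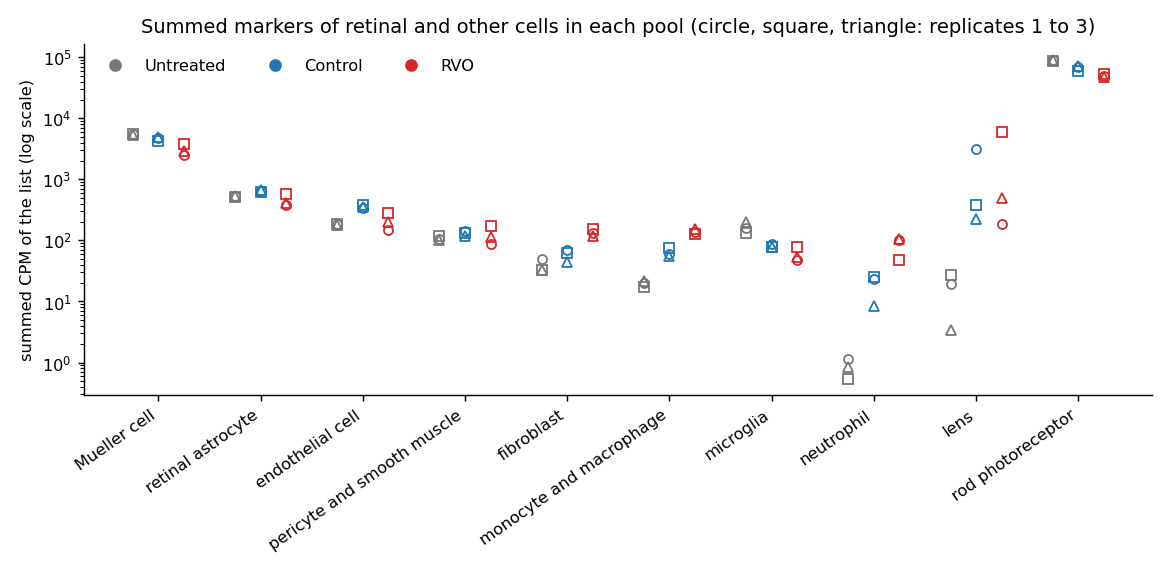
Summed CPM of marker lists (vertical axis, log scale) for the cell types on the horizontal axis; symbols are single pools. Fibroblast, monocyte and macrophage, and neutrophil sums step up from untreated to RVO, microglia and rod sums step down, the Mueller cell sum does so with Glul included, and lens genes reach 6011 CPM in RVO replicate 2 and 3156 CPM in control replicate 1.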

How the data were processed

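Retinal poly-A RNA was sequenced as 50-cycle single reads from stranded libraries. The authors mapped reads with STAR 2.5.2b to the mouse genome (Gencode vM11), counted reads per gene with featureCounts (Subread 1.5.1) and deposited the counts per gene symbol without normalization. The strand setting and the handling of reads that match several genes are not given in the sources used here. Of 48679 names, 92 were spike-in controls with 0 counts, and 18157 genes had 0 counts in all pools.

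Groups were taken from the labels. For each pair of groups, genes passing filterByExpr were scaled by TMM and tested with edgeR 4.0.16 (quasi-likelihood test, R 4.3.3), with Benjamini-Hochberg adjustment over all genes tested. This per-pair design and the threshold of 0.01 follow the study's tables, whose own test was DESeq2. Biological variation, as edgeR's coefficient, was 13.8% (RVO with untreated), 7.49% (control with untreated) and 14.4% (RVO with control). CPM for display was scaled by TMM over all 9 pools (factors 0.903 to 1.07). Count ratios, with 0.5 added to each count, were compared by exact permutation over pools. Profiles were compared on log2 CPM with 0.5 added. Coordinates and lengths are from GENCODE vM21 (GRCm38), and start windows from RefSeq (GRCm38.p6). Replicates differed by more than sampling noise (chi-square over its degrees of freedom 3.15 to 54.1). Precision is given as the spread of the replicates, which can be narrower than counting error where counts are low. In untreated pools Nes had 61, 67 and 85 counts, Lmna 91, 109 and 120, and Gfap 232, 271 and 290. Their SD there was 7.63%, 1.7% and 1.14% of the mean. Such small SDs are therefore not a measure of precision. The procedure was tested on simulated data.

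All 6 members are named. Of every other list the 3 genes of highest mean CPM were eligible by rule, with Lmnb1 and Lmnb2 for their ratio. For each member the 3 nearest profiles are named. The single called adhesion gene belongs to these. Bfsp1, Bfsp2, Cdk1, Plk1, Aurkb, Pak1, Rock1, Kcnj10, Sox9, Rlbp1, Aqp4, Car14, Abca8a, Igf1, S100b, Pdgfra, Pax2 and marker genes at 0 were named after their values were seen. The members and lists were chosen with earlier results of these data known. Alternatives were other normalizations and filters, DESeq2 1.42.0, a fit of all pools, removal of GC content and length trends (available for 96.8% of genes tested), the replicate number as a block, an adjusted p under 0.05 and each pool left out. The longest transcript as length and the marker sums without Glul or Aldoc were chosen after seeing the data.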

Additional observations from a re-analysis of the deposited data

How the results depend on the processing

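Filament gene calls against untreated eyes numbered 5 in each comparison under all alternatives run, except for 6 in RVO eyes without RVO replicate 2, where Synm was called lower. Between RVO and control eyes the 3 calls ranged from 0 to 4 when 1 pool was left out, and the cause was not tested. With the replicate number as a block, 0 filament genes and 0 of all genes were called by edgeR between RVO and control eyes (7227 genes at an unadjusted p under 0.05), and Vim, Nes and Lmna had adjusted p values of 0.0314 each. Same-numbered RVO and control pools did not deviate together (r of -0.19, -0.19 and 0.11), so the numbers were not taken to pair the samples, although RVO and control eyes were fellow eyes and same-numbered pools may hold the same mice. Over all genes, 563 calls between RVO and control eyes became 892 with library size only, 361 with upper quartile normalization, 3309 without a filter on low counts, 4037 with DESeq2, 3853 with all 9 pools in one fit and 5836 at an adjusted p under 0.05. Leaving out 1 pool gave 0 to 6257 calls in that comparison, 6008 to 10491 between RVO and untreated eyes and 6915 to 8115 between control and untreated eyes. The log2 fold change of Synm in control against untreated eyes, 0.03 with an adjusted p of 0.651 in edgeR, became -0.01 after removal of GC content and length trends, without control replicate 1 and without untreated replicate 1 (adjusted p 0.898, 0.922 and 0.876), and it ranged from -0.01 to 0.07 with 1 pool left out. Of 288 fold changes of the 6 genes under alternatives, 266 kept their direction and side of the threshold, 17 were no longer called, 2 became called and 3 changed sign. The lower totals of untreated pools limit values of rare genes. Among the 6 genes this applies most to Nes, with 61 to 85 counts there, and Lmna, with 91 to 120.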
